A study of Homo sapiens with 6 samples.

Results

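Genes that were detected in only 1 of 2 related esophageal squamous cancer cell lines were described. TE13 is the parental line, and TE13R is the radioresistant clone raised from it by repeated fractions of radiation. Both had been received as a gift, and their identity had been tested by the provider. RNA was taken from each line at 0, 8 and 24 h after X-ray irradiation and hybridised to Illumina Human-6 V3 arrays of 1 colour, with 1 array for each line and time point. No time point was therefore repeated within a line. The methods speak of triplicate profiling, but the sample labels hold no replicate number. The sources used here do not give the dose. Since TE13R is 1 clone, a difference that came with the radiation and one that came with the choice of the clone cannot be told apart.

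The genes were chosen by the measured intensities themselves. For each gene symbol the probe with the highest mean over the 6 arrays was taken. A gene was called off in TE13R where this probe read at least 60 on all 3 TE13 arrays and at most 25 on all 3 TE13R arrays, and on in TE13R in the reverse case. Of 18665 symbols, 24 met the limits for off (0.129%) and 12 met those for on (0.0643%). From these, 8 genes were left out by name or as Y-linked, 4 in each direction, so that 20 symbols off in TE13R and 8 on in TE13R are described, 28 in all. The difference between the lines was selected on these same arrays. It is therefore given as a description with no test. The 3 arrays of a line are different time points, so their spread holds the time course and is no measure of error.

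Most genes that an epithelial cell line expresses are shared with the lines derived from it and differ in amount. A smaller set moves between silence and expression. In mammalian DNA the dinucleotide CpG is where cytosine is methylated, and promoters rich in CpG belong mostly to widely used genes, whereas promoters poor in it belong more often to genes of particular tissues. An array reads RNA from the whole culture, so fewer cells that express a gene and less RNA per cell cannot be told apart.

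The intensities had been background-subtracted before they were deposited, and a dim probe can read less than 0. From the spread of such values, taken 3 times, came a detection limit of 20.2. All 10 squamous epithelial markers measured (KRT5, KRT14, EPCAM and others) read 60 or more on every array of both lines. Of 23 markers of fibroblasts, leukocytes and endothelium, 0 did so in TE13 and 2 in TE13R (PDGFRA and VWF), while PTPRC, CDH5 and COL3A1 stayed under the limit on all 6 arrays. The summed intensity of the 10 fibroblast markers was 124 to 330 in TE13 and 161 to 308 in TE13R, that of the 7 leukocyte markers 63.4 to 142 and 57.8 to 178, and that of the 6 endothelial markers 78.2 to 658 and 203 to 994. Across 7640 genes read on all 6 arrays, the 2 lines at one time point were more alike (Pearson's r on the log2 scale of 0.946 at 0 h, 0.977 at 8 h and 0.97 at 24 h) than the 0 h and later arrays of one line (0.73 to 0.849).

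The upstream sequences of 8 of the genes are shown first, because the 28 genes did not share one kind of promoter. Of the 28, 18 have a promoter window in the RefSeq table of GRCh38.p14, which spans 250 bases before to 50 after a gene's start. Those without an entry are CPLX1, MGLL, BAIAP2L2, CD40, MEOX1, SOX9, LRRC3DN, ARSD, BARX2 and TPRXL. Each line below gives the 250 upstream bases, 5′ to 3′ on the gene's own strand, with every CG in capitals, and in GPR15LG also the letters TATAAA. The first 4 genes were off in TE13R and the last 4 were on. MYADM lies on the plus strand (chr19:53866121-53866370), as do FSD1 (chr19:4304348-4304597), AMTN (chr4:70518319-70518568), ZNF22 (chr10:45000673-45000922), SLC35G2 (chr3:136818876-136819125) and GPR15LG (chr10:84173551-84173800). RNF157 (chr17:76240494-76240743) and ADGRF1 (chr6:47042333-47042582) lie on the minus strand.
MYADM: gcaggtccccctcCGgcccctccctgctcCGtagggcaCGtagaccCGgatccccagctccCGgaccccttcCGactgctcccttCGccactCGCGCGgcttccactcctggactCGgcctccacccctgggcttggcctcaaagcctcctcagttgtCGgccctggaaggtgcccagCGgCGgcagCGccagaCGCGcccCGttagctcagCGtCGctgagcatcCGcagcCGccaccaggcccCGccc
FSD1: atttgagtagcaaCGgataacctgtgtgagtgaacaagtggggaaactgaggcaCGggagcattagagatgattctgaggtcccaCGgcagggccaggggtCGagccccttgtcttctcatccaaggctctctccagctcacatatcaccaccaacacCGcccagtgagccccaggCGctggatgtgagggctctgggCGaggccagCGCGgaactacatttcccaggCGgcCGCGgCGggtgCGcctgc
RNF157: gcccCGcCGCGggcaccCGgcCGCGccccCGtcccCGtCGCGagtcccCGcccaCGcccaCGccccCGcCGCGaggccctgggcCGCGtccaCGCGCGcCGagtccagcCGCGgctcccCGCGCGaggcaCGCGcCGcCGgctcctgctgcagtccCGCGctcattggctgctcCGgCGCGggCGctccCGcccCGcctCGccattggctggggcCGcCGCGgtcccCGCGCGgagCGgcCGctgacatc
AMTN: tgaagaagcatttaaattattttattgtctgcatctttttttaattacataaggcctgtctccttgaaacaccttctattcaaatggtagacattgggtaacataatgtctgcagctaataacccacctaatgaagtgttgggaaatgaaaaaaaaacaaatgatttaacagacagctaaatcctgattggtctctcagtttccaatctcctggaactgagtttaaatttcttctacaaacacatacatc
ZNF22: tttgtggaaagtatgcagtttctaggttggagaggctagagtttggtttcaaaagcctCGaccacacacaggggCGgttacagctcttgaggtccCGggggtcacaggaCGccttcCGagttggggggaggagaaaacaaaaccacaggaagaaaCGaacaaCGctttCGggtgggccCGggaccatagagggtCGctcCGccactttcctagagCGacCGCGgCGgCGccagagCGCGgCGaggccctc
SLC35G2: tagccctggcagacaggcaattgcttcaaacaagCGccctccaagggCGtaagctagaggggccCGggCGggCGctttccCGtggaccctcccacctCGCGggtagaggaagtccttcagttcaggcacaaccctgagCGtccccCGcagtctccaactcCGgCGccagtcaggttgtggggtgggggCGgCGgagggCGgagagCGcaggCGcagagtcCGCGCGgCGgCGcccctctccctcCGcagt
GPR15LG: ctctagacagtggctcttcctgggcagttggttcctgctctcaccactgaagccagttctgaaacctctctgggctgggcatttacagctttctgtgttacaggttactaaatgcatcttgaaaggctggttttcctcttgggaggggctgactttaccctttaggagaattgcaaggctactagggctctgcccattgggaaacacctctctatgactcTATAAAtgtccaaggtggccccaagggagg
ADGRF1: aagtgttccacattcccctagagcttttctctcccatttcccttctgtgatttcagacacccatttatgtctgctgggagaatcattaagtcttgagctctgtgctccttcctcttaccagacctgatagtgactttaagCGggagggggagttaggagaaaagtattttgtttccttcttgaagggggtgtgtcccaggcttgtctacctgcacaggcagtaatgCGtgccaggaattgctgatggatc

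In the window of RNF157 there were 56 CG dinucleotides and in that of AMTN there were 0. A window was called CpG-rich where CG reached 0.6 of the number that its C and G content would give and G+C reached 50%. By this rule 11 of the 13 genes off in TE13R that have a window were CpG-rich in at least 1 start, and 3 of the 5 on in TE13R. Among all 14723 array genes with a window the share was 68.3%, and among the genes read at 60 or more on all 3 arrays it was 89.3% in TE13 and 88.8% in TE13R. The exceptions were AMTN and FUT2 among genes off, and GPR15LG and ADGRF1 among genes on. LINGO1, with 9 starts in the table, had between 3 and 42 CG in a window. The letters TATAAA, searched on both strands of the window, were found in GPR15LG and in 1 of the 3 windows of MYADM, and in 12.3% of all array genes. Such a match is a description of the letters and not of a binding site.

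**Figure D1:**
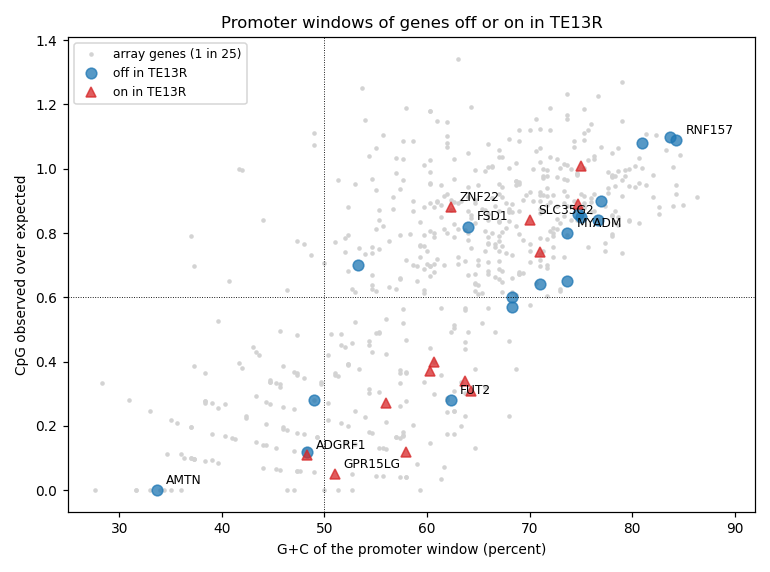
Promoter windows of the genes off (circles) and on (triangles) in TE13R, with G+C in percent on the x axis and CpG observed over expected on the y axis; grey points are 1 in 25 of the array genes, dotted lines mark 50% and 0.6, and a gene with several starts has several points. Windows of both directions lie on both sides of the lines, from AMTN with 33.7% G+C and no CG to RNF157 with 84.3%.

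Genes off in TE13R read 63.2 or more in TE13 and 22.5 or less in TE13R. Of their 60 TE13R values, 31 were below 0 and 3 were above the detection limit of 20.2. The 3 belonged to CPLX1 at 24 h and FUT2 at 0 and 24 h, so the chosen probes of the other 18 were not above the limit on any TE13R array. For FSD1, MGLL and MEOX1 another probe was, as given with the other probes below. Where a line lay at or under the limit, a fold is given as a lower bound, its brighter line against the limit, or against the gene's own value where that was higher. These bounds ran from 4.33-fold to 79.6-fold with a median of 9.15-fold. The genes are grouped below by what they are known to do. The groups were assigned by hand, and no share of such genes over all symbols was counted, so nothing is read from their sizes.

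The largest bound belonged to MYADM, which encodes a membrane protein of the MAL and MARVEL family. In TE13 it read 769, 1878 and 2874 at 0, 8 and 24 h, and in TE13R -11.5, -3.5 and -8.0. The lowest TE13 array lay far above the highest TE13R array, and its CpG-rich upstream sequence is the first one printed above. NIPAL4, a magnesium transporter of the epidermis that is mutated in congenital ichthyosis, read 63.8, 138 and 298 in TE13 and 3.7, 14.7 and 15.3 in TE13R. At 0 h it lay just above the limit of 60.

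Products of neurons and secretory cells made up 4 of the 20. FSD1, a microtubule-associated protein most abundant in brain, read 302, 806 and 1275 in TE13 and 3.9, 7.3 and 1.1 in TE13R, at least 33.5-fold apart by this probe and less by others given below. CPLX1 encodes complexin-1, which clamps and then helps the membrane fusion machinery of secretory vesicles, and read 225, 576 and 697 in TE13 against 3.9, 5.2 and 22.2 in TE13R. PCSK1N encodes proSAAS, the inhibitor of the prohormone convertase PCSK1. It read 94.6, 646 and 572 in TE13 and stayed below 0 on all 3 TE13R arrays, at least 16.2-fold apart. RNF157, a ubiquitin ligase of neurons, read 97.7, 132 and 254 against 13.9, 13.1 and 6.4. By the rule the 2 lines could not overlap in any of these 4 genes. A separate list of 131 neuronal and secretory granule genes does not hold FSD1 and RNF157. Of its genes, 2 were off in TE13R (CPLX1 and PCSK1N, against 0.129% of all symbols) and 0 were on (0.0643%). At or under the detection limit on all 6 arrays were 68, and the list's median log2 difference was 0.

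Among enzymes of glycans and lipids, B4GALNT4 transfers N-acetylgalactosamine onto N-acetylglucosamine and read 190, 376 and 496 in TE13 against -3.9, -1.3 and 19.2 in TE13R. FUT2, the secretor fucosyltransferase that makes the H antigen of epithelia and mucus, read 126, 266 and 598 in TE13 and 22.2, -13.8 and 22.5 in TE13R. Its TE13R values at 0 and 24 h lay at the edge of detection, so the label of a gene detected in 1 line holds for it only at the limit of 25. MGLL encodes monoacylglycerol lipase, which breaks down the endocannabinoid 2-arachidonoylglycerol, and read 156, 305 and 336 in TE13 and 15.2, 14.2 and 16.2 in TE13R.

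Matrix and cell-surface products made up 6 of the 20 symbols. AMTN encodes amelotin, a protein of maturing enamel, and read 239, 251 and 387 in TE13 and 9.4, 3.3 and 11.9 in TE13R. MFAP2, a glycoprotein of elastic microfibrils, read 98.5, 326 and 470 in TE13 and was below 0 on all 3 TE13R arrays. CSPG5, a brain proteoglycan also called neuroglycan C, had the smallest bound, 4.33-fold, with 70.7, 67.3 and 140 in TE13 and 2.0, -6.0 and -5.8 in TE13R. CD40, the receptor through which T cells activate antigen-presenting cells and which many epithelia also carry, read 82.6, 150 and 396 in TE13 and -11.9, -14.8 and -9.7 in TE13R, at least 8.41-fold apart. LRRC3, a membrane protein with leucine-rich repeats, read 76.7, 179 and 191 in TE13 and -1.0, -2.4 and 1.7 in TE13R. LRRC3DN, the 6th symbol, is an older name that the reference table now lists under LRRC3, so the 20 symbols stand for 19 genes, and its probe read 76.6, 185 and 122 against -0.7, -5.6 and -4.4. Of 149 collagens and other matrix genes that remained after the genes left out by name, 1 was off in TE13R (MFAP2, where 0.129% of all symbols met the limits) and 0 were on (0.0643%). The list's median log2 difference was -0.03. The other symbols of this group are not in that list.

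Both genes of the actin cytoskeleton shape the cell edge. BAIAP2L2, an I-BAR protein that bends membrane, read 72.6, 106 and 577 in TE13 and 18.6, -1.2 and 19.8 in TE13R. WASF3 encodes WAVE3, which switches on the Arp2/3 complex, and read 361, 91.4 and 72.9 in TE13 and 16.2, -0.6 and -4.6 in TE13R. The time order of the TE13 arrays was thus opposite in these 2 genes, with WASF3 highest at 0 h. Transcription factors were SOX9, a regulator of cartilage and of epithelial progenitors, with 134, 175 and 63.2 in TE13 and -4.7, -4.3 and 19.1 in TE13R, and MEOX1, a mesodermal homeobox factor, with 72.2, 139 and 167 and 13.9, -4.2 and 1.3. PBDC1, whose role is not settled, read 355, 297 and 75.6 in TE13 and was below 0 on all TE13R arrays.

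**Figure D2:**
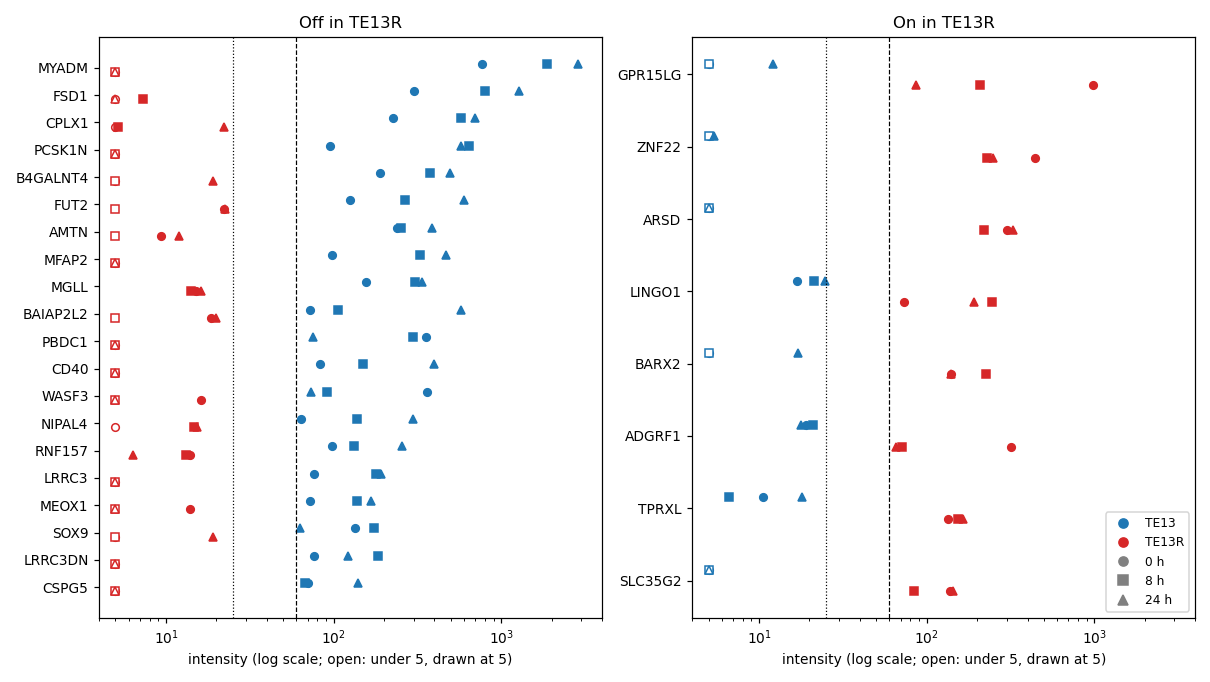
Intensity (log x axis) of each of the 20 genes off (left) and the 8 on (right) in TE13R on every array, by line (colour) and time (shape); the dashed line is the limit of 60, the dotted line that of 25, and values under 5 are drawn open at 5. By the rule no gene has overlapping lines, and MYADM lies farthest to the right with 769 to 2874 in TE13.

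The genes on in TE13R were fewer. The means of their probes over the 3 TE13R arrays were 121 to 424, and those of the genes off were 92.8 to 1840 in TE13. Of their 24 TE13 values, 7 were below 0 and 3 were above the detection limit, so the chosen probes of 6 of the 8 were not above the limit on any TE13 array. For ARSD, 1 of these 6, another probe was. The bounds ran from 5.59-fold to 14.5-fold with a median of 7.79-fold. The group held 2 transcription factors, 3 ligands or receptors, a sulfatase-family gene, a transporter-family gene and a transcribed pseudogene.

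ZNF22, a zinc finger protein first described in tooth development in the mouse, read 4.3, 2.6 and 5.4 in TE13 and 442, 228 and 250 in TE13R, at least 14.5-fold apart. BARX2, a homeobox factor of epithelia and muscle, read 3.0, 1.0 and 17.0 in TE13 and 139, 228 and 140 in TE13R. By the rule neither gene could overlap between the lines. ZNF22 was 1 of 493 zinc finger genes and BARX2 1 of 139 homeobox genes measured, against 0.0643% of all symbols, and 0 genes of either list were among those off in TE13R (0.129%). MEOX1 is a homeobox gene that the list of 139, built from name patterns, does not hold.

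GPR15LG encodes the secreted ligand of the lymphocyte receptor GPR15 and is made by epithelia such as skin and colon. It read -2.4, -3.4 and 12.1 in TE13 and 978, 209 and 86.6 in TE13R, at least 12.9-fold apart over the 3 times. ADGRF1, an adhesion receptor also called GPR110, read 19.2, 21.0 and 17.8 in TE13 and 320, 71.1 and 66.0 in TE13R. Only its 0 h value stood well clear of the limits, and its TE13 value at 8 h lay just above the detection limit. LINGO1, a co-receptor that restrains axon growth and myelination, read 16.8, 21.4 and 24.7 in TE13 and 73.2, 244 and 193 in TE13R, so it was weakly detected in TE13 at 8 and 24 h. Of 99 genes found by names of the GPR and ADGR kind, 2 were on in TE13R (ADGRF1, and GPR15LG, which is a ligand and not a receptor), against 0.0643% of all symbols, and 0 were off (0.129%).

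ARSD, an arylsulfatase-family gene of the X chromosome, read -5.1, -7.6 and -10.6 in TE13 and 302, 221 and 327 in TE13R, at least 13.8-fold apart. SLC35G2, a membrane protein of the nucleotide sugar transporter superfamily, read -7.2, 0.2 and -7.0 against 138, 83.6 and 143. TPRXL, a transcribed pseudogene of a homeobox family, was the steadiest over time, with 10.5, 6.6 and 18.0 in TE13 and 135, 153 and 166 in TE13R. In these 3 genes the TE13R arrays differed among themselves by less than they differed from TE13, as they did in ZNF22 and BARX2. The rule itself sets the lines apart, so nothing is read from this.

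Of 18 gene families listed by name pattern, 5 held one of the 28 symbols, 7 symbols in all, and 13 held 0. The counts were made after the 8 genes above had been left out, some of which belong to these families, and at the shares over all symbols (0.129% off and 0.0643% on) a list of this size would mostly hold 0, so nothing is read from the zeros. The 13 include 81 cancer/testis antigen genes, 133 keratins and cornified envelope genes, 59 interferon-stimulated genes, 57 clustered protocadherins, 341 solute carriers whose pattern does not take in SLC35G2, 199 ion channels, 37 imprinted genes, 32 serpins, 17 MHC class II genes, 14 BEX and TCEAL genes, 73 RAB GTPases, 43 glutathione S-transferases and UGTs, and 44 genes that some human genomes lack through common deletions. The median log2 difference was -0.61 for the interferon-stimulated list and between -0.35 and 0.06 for the other 12.

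The limits of 60 and 25 cut through a continuous range. Just inside for off lay SOX9, whose lowest TE13 value was 63.2, NIPAL4 with 63.8, and FUT2, whose highest TE13R value was 22.5. Just outside lay DNAAF1, a ciliary assembly factor with 25.7 in TE13R at 0 h, the synaptic vesicle protein SV2A with 25.9 at 0 h, and JPH2, a junctional membrane protein of heart muscle with 26.8 at 8 h. For on, LINGO1 was inside by its highest TE13 value of 24.7, ADGRF1 by 21.0 and by its lowest TE13R value of 66.0, and TPRXL by 18.0. Just outside lay the potassium channel subunit KCNE5 with 25.3 in TE13 at 8 h, SPRR2A, a cornified envelope protein with 58.3 in TE13R at 0 h, and the kallikrein KLK12 with 25.9 in TE13 at 24 h.

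Other probes of the same genes, which the choice of the brightest probe set aside, were read as well. There were 22 such probes for 11 of the symbols. Of these, 3 met the limits in the same direction, 5 were above the detection limit only in the line that the rule names, 5 were above it in both lines and 9 in neither. The 9 say nothing on the difference, since they read no signal in the line that has the gene. The 2nd probe of ZNF22 read below 0 on all TE13 arrays and 330, 222 and 275 in TE13R. For ARSD, a 2nd probe read at most 1.6 in TE13 and 65.6, 88.9 and 143 in TE13R, whereas the 3rd was dim in both lines, with 17.2, 45.5 and 30.3 in TE13 and 29.5, 50.5 and 36.4 in TE13R. FSD1 has 6 probes. One more of them met the limits, another was above detection in TE13 only and 1 was dim in both lines. The other 2 were detected in both, at 173, 506 and 712 in TE13 and 21.4, 35.1 and 38.8 in TE13R for one and at 84.7, 289 and 404 and 30.0, 88.4 and 35.3 for the other. MGLL likewise had a 2nd probe with 81.5, 198 and 196 in TE13 and 19.8, 51.2 and 52.3 in TE13R. By these probes FSD1 and MGLL were lower in TE13R and not absent from it, so for both the label of a gene detected in only 1 line goes further than the data. MEOX1 had a 2nd probe near the limit in both lines, with 21.0, 36.8 and 33.7 in TE13 and 18.0, 12.4 and 21.0 in TE13R. For ADGRF1, 2 probes read 134 and 92.7 in TE13R at 0 h but only -3.7 and 10.5 at 8 h and 10.9 and 27.9 at 24 h, so they bear on 0 h mainly. The other 2 probes of MYADM read at most 23.4 in either line, so the largest difference of the set rests on 1 probe.

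In TE13, 16 of the 20 symbols off in TE13R were lowest at 0 h. The same held for 47.1% of the 7929 genes that read 60 or more on all 3 TE13 arrays. At 24 h, 17 of the 20 were higher than at 0 h (52.3% of the 7929), 14 of them at least 2-fold (29.2%). At 8 h, 17 were higher (53.0%), 9 of them at least 2-fold (28.9%). The median log2 ratio of the 20 was 0.98 at 8 h and 1.38 at 24 h, and that of all 7929 genes was 0.14 and 0.12. Among the 5154 genes within the same range of mean intensity, 30.0% were at least 2-fold higher at 24 h and the median was -0.03. BAIAP2L2 was 7.94 times its 0 h value at 24 h, PCSK1N 6.05 times, CD40 4.80 times and MFAP2 4.78 times. At least 2-fold lower were 1 gene at 8 h (WASF3), against 27.8% of all, and 3 at 24 h (WASF3, PBDC1 and SOX9), against 28.2%. WASF3 had been 4.95 times higher at 0 h than at 24 h. In 14 of the 20 the order was 0, 8, 24 h from low to high, an order held by 24.2% of the 7929 genes.

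The rule asked for at least 60 on each TE13 array and did not ask for a time order. With 1 array per time there is no replicate of the change, and the 0 h arrays of both lines stood apart from the later ones across all genes, as the correlations above show. The part of that difference in these ratios was not tested. LRRC3 and LRRC3DN count as 2 symbols here although they name 1 gene. Outside the 20, a further 22 genes met wider limits of 40 and 40, and 17 of them were higher at 24 h than at 0 h, 8 at least 2-fold. Over the 7929 genes these shares were 52.3% and 29.2%. Some of the 22 had missed the limit of 60 by their TE13 value at 0 h, as NACAD (49.0) and PRRX2 (45.2) did. A rise from 0 h is thus partly built into their choice, and nothing is read from it.

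Genes on in TE13R showed no such common order in TE13R. At 8 h, 1 of 8 was at least 2-fold higher (22.4% of 8089 genes) and 2 were at least 2-fold lower (24.3%), and at 24 h the counts were 1 and 2 (21.7% and 21.7%). The same 3 genes moved at both times. LINGO1 was 3.33 times its 0 h value at 8 h and 2.63 times at 24 h. GPR15LG was 4.69 times higher at 0 h than at 8 h and 11.3 times higher than at 24 h, and ADGRF1 4.50 and 4.85 times. The other 5 changed by less than 2-fold at both times, ZNF22 coming nearest with 1.94 times more at 0 h than at 8 h. Whether the 20 and the 8 differ in their time course was not tested, since each was read in another line.

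**Figure D3:**
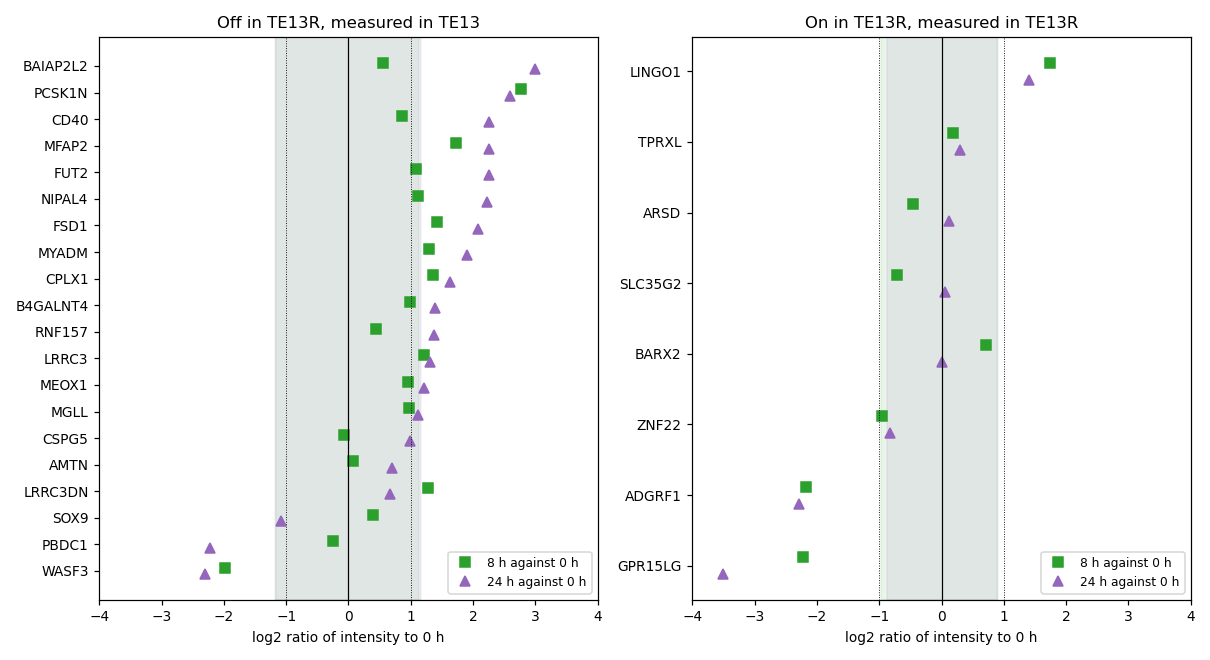
Log2 ratio of intensity at 8 h (squares) and 24 h (triangles) to 0 h in the line that has the gene, for the genes off in TE13R (left, in TE13) and on (right, in TE13R); shaded bands hold the middle 50% of all genes read in that line, and dotted lines mark 2-fold. Of the 20 genes on the left, 17 lie right of 0 at 24 h, against 52.3% of all genes read in TE13. GPR15LG on the right lies lowest at -3.50.

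Along the chromosomes the genes did not lie side by side. LRRC3 and LRRC3DN, which share a gene, aside, 0 of the 27 placed genes had another of the same direction with at most 5 array genes between them, and 0 had one with at most 20 between. Only 19 genes off and 8 on were placed among 18561 array genes. Such close pairs would be rare among so few scattered genes, so nothing is read from the zeros. The nearest pairs were SOX9 and RNF157 on chromosome 17, with 67 array genes between, PCSK1N and PBDC1 on the X chromosome with 146, FUT2 and MYADM on chromosome 19 with 169, and ZNF22 and GPR15LG on chromosome 10 with 182. The genes off lay on 12 chromosomes, 3 each on chromosomes 17 and 19, which hold 5.79% and 6.89% of the array genes. The genes on lay on 6 chromosomes.

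Averaged over the 3 times, the nearest genes on either side mostly had a similar level in both lines. For each gene the 4 measured genes before and after it were taken, measured meaning 60 or more on all 3 arrays of at least 1 line, and the log2 difference, TE13R minus TE13, was averaged over the 3 times with 16 added to each intensity. Around the genes off, the median of 152 flanking genes was -0.01, 2 were at least 2-fold lower and 3 at least 2-fold higher. Around the genes on, the median of 60 was 0.03, with 3 at least 2-fold higher and 0 lower. Across all 8329 measured genes, 2.59% were at least 2-fold higher and 2.28% lower. For MYADM, the 8 flanking genes lay between -0.13 and 0.45, and the nearest measured on either side, ZNF160 and NDUFA3, at 0.05 and 0.45. The average can hide single times. NDUFA3 differed by 1.61 at 0 h and by -0.09 and -0.19 at 8 and 24 h. PADI3 near MFAP2, at 0.02 on average, differed by 1.80, 0.02 and -1.76 at 0, 8 and 24 h.

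Of the nearest measured genes on either side of the genes off, 1 was at least 2-fold lower and 1 at least 2-fold higher. The first, next to MEOX1, was SOST, which encodes the Wnt inhibitor sclerostin, read 1954, 565 and 1418 in TE13 and 259, 100.1 and 482 in TE13R, a log2 difference of -2.23. It was lower at each time point but stayed well detected in TE13R. Near B4GALNT4, the interferon-induced IFITM1 differed by -1.35. The second, MYL5, a myosin light chain gene next to CPLX1, differed by 1.04, with 1157, 2160 and 2630 in TE13R and 358, 1510 and 1355 in TE13. By sign alone, 7 of the 8 flanking genes were higher in TE13R around CPLX1, RNF157 and WASF3, against 53.7% of all measured genes. Around MEOX1, CD40 and MGLL, which are off as well, 7 of the 8 were lower. The same count was lower around ZNF22, which is on, so one-sided flanks were not particular to genes off. The medians around these genes lay between -0.26 (ZNF22) and 0.44 (CPLX1). ACTL8 near MFAP2 (2.54) and CITED1 near PBDC1 (1.80) were also higher in TE13R.

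**Figure D4:**
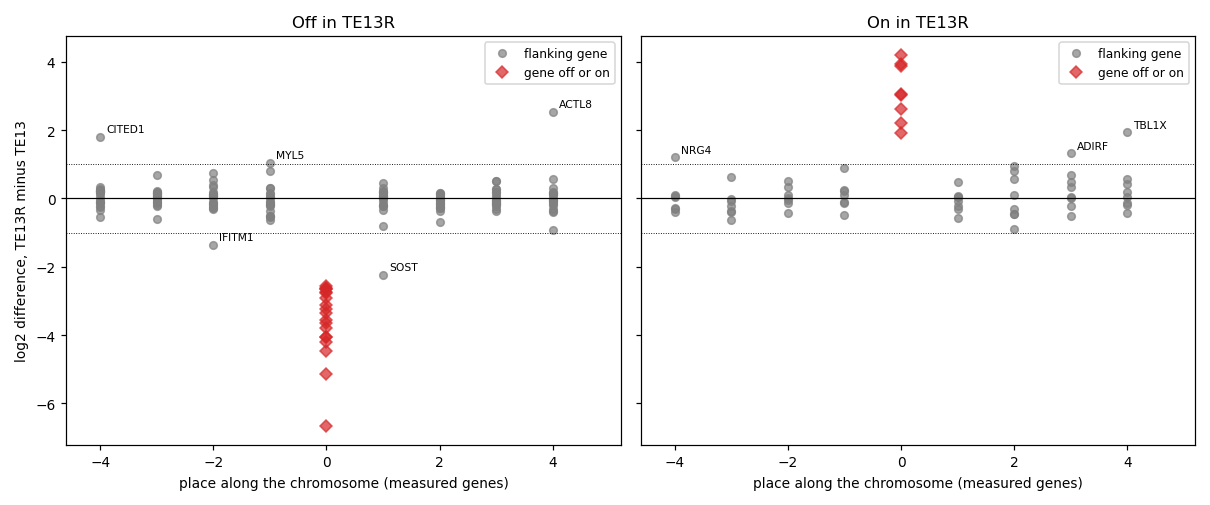
Log2 difference, TE13R minus TE13 (mean of 3 times), of the genes off (left) or on (right) in TE13R (diamonds at 0) and of up to 4 measured genes on each side (circles), by place along the chromosome; flanking genes past 2-fold (dotted lines) are named. Of 212 flanking genes, 8 lie past 2-fold, among them SOST at -2.23 and ACTL8 at 2.54.

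LINGO1, the 1 gene of the set on chromosome 15, lay among genes that were higher in TE13R as well. All 8 of its flanking genes were higher, by 0.24 to 1.21 on the log2 scale, NRG4 most. Of the 40 measured genes within 20 places on either side, 37 were higher, with a median of 0.58. The same held along the whole chromosome, where 250 of 273 measured genes (91.6%) were higher in TE13R with a median of 0.56, at 0.58 for 0 h, 0.50 for 8 h and 0.61 for 24 h. Over all chromosomes 53.7% of measured genes were higher, and the next highest median was 0.19 on chromosome 7, the lowest -0.26 on chromosome 14. Near the other genes on, TBL1X, 4 measured places from ARSD, was higher by 1.94 and ADIRF, 3 places from GPR15LG, by 1.32. ARSD has only 4 flanking genes here, all on one side, since the genes that X and Y share were not used. Of these, 3 were higher, with a median of 0.745, against 0.53 for the 8 around LINGO1. Higher flanks were thus not particular to LINGO1. The chromosome was looked at after the values around LINGO1 had been seen.

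**Figure D5:**
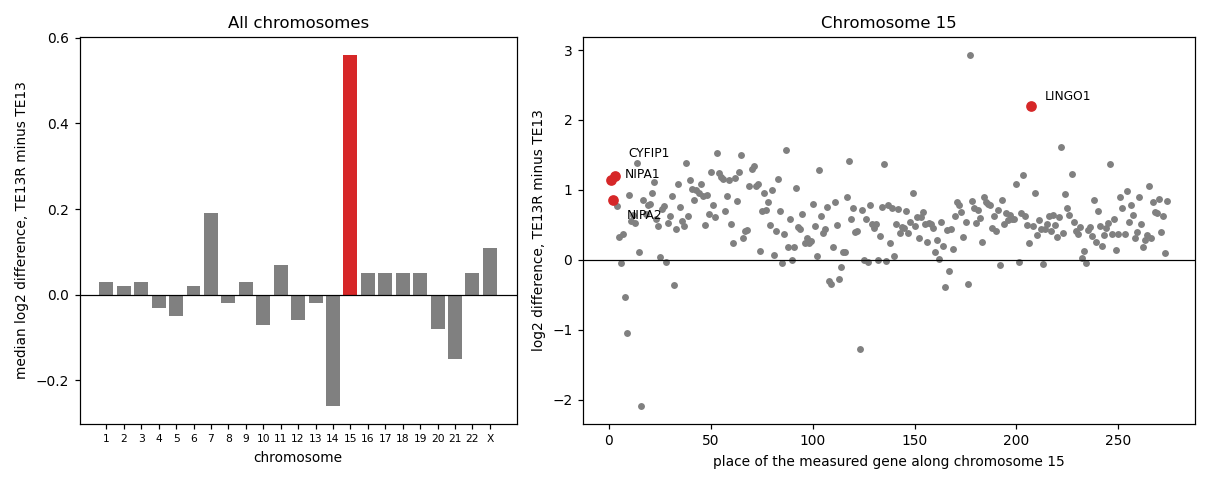
Left, the median log2 difference, TE13R minus TE13, of the measured genes of each chromosome; right, the difference of each measured gene along chromosome 15, in gene order, with LINGO1, CYFIP1, NIPA1 and NIPA2 in red. The median of chromosome 15 is 0.56, and every other chromosome lies between -0.26 and 0.19.

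Relatives and partners of the genes were read to see what else of each system the lines express. Of 63 such genes measured, 30 were above the detection limit on all 6 arrays, 19 on none and 14 on some. The list was written after the 28 genes were known, and levels were compared only between lines for the same probe. The complexins CPLX2, CPLX3 and CPLX4 were undetected in both lines, so CPLX1 was the 1 complexin detected, in TE13. Likewise SOX8 and SOX10, the relatives of SOX9, and MEOX2 and BARX1 were undetected in both. GPR15, the receptor of GPR15LG, was at most 8.1 on any array.

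For other genes a relative was present in both lines. WASF2, the WAVE protein next to WASF3, read 844, 1037 and 1308 in TE13 and 1716, 1176 and 1230 in TE13R, and the complex partners ABI1, NCKAP1, CYFIP1 and BRK1 were detected on all 6 arrays. BAIAP2 and BAIAP2L1, the relatives of BAIAP2L2, were bright in both lines, the latter higher in TE13R by 1.28 on the log2 scale, whereas MTSS1, of the same I-BAR family, was lower by a difference of -1.09 and MTSS2, near the limit, differed by -0.58. MGRN1, the closest relative of RNF157, differed by 0.17 and B4GALNT1 by 0.39. The magnesium transporters NIPA1 and NIPA2 were higher in TE13R by 1.15 and 0.85 while NIPAL4 was off. NIPA1, NIPA2 and CYFIP1, with 1.20, lie together on chromosome 15. FUT1, the other enzyme of the H antigen, read 18.8, 93.7 and 77.2 in TE13 and 29.0, 30.3 and 74.0 in TE13R.

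Some partners fell on the same side as the gene. DAGLA, a lipase that makes the substrate of MGLL, read 26.4, 25.2 and 102 in TE13 and -8.7, 0.7 and 10.6 in TE13R, while DAGLB, ABHD6 and ABHD12 were detected in both lines with differences of -0.02, 0.01 and 0.36. FBN2, a fibrillin of the microfibrils that MFAP2 decorates, read 141, 83.0 and 62.1 in TE13 and 52.3, 17.8 and 26.0 in TE13R. TRAF3, TRAF5 and TRAF6, adaptors that CD40 uses, were detected in both lines. RTN4R and RTN4, the partners of LINGO1, were detected in both lines with differences of -0.10 and 0.10. The other partners NGFR and TNFRSF19 were not detected on any TE13R array. In TE13, NGFR read 2.5, -3.0 and 60.2 and TNFRSF19 34.1, 84.1 and 11.7, so they fell on the side opposite to LINGO1.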

How the data were processed

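RNA of TE13 and TE13R was measured on 6 arrays, 1 per line and time point. The authors collected the data in BeadStudio (version not given in the sources used here) and deposited intensities on a linear scale, background-subtracted and brought to 1 scale (medians 7.95 to 7.96), so no further normalization was applied. The number of arrays limits the precision. KY170 and its derivative KY170R were not analysed here.

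Of 48803 probes, 27578 have 1 gene symbol in the platform annotation, 13 have several and 21212 have none there. Genes were placed by Entrez identifier in the RefSeq table of GRCh38.p14 (18639 of 18665 symbols found), used for names and order only. Overlapping promoter windows of opposite strands read as reverse complements in 2828 of 2828 pairs. No model was fitted and no p-value is given, since these arrays chose the genes. The limits, gene lists and comparisons were chosen with earlier results of these data known. The rule for names took the 12 brightest genes per direction, chromosome neighbours, up to 4 genes per list and the 3 nearest on each side of the limits. Flanking genes, relatives and others beyond it were chosen after their values were seen. Other limits, probe rules, offsets, quantile normalization and leaving out each time point were tried. The code of the selection was run on simulated data (Python 3.11.15, pandas 2.3.3, numpy 2.4.6). In that run the planted genes were made to meet the limits and the others were not. It therefore checks the code only, and nothing is read from it on how the selection behaves on these arrays.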

Additional observations from a re-analysis of the deposited data

Results flagged for a closer look

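Probes without a gene symbol in the platform annotation were left out of the gene set, and some of the 21212 met the same limits. Of these, 5 were off in TE13R and 4 were on. The brightest off was ILMN_1705442, with 293, 729 and 1334 at 0, 8 and 24 h in TE13 and -5.2, 2.1 and -6.7 in TE13R. The brightest on was ILMN_2384181, with 20.5, -1.0 and -2.4 in TE13 and 360, 240 and 114 in TE13R. In TE13, 5 of the 5 probes off were higher at 24 h than at 0 h. In TE13R, 2 of the 4 probes on were. The shares of the named genes at 60 or more on all arrays of the line were 52.3% and 51.8%. The genes behind these probes are not named here.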

How the results depend on the processing

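Every gene is judged on 6 single arrays, so the counts move with the limits. Of 20 genes off and 8 on in TE13R, 18 and 6 stayed with the detection limit in place of 25 (CPLX1, FUT2, ADGRF1 and LINGO1 were lost). After quantile normalization the counts were 20 and 8, the same genes. The deposited arrays already shared almost the same distribution of intensities, so that step could change little. Its unchanged counts are therefore no check on the scaling. With the lower limit at 100 the counts were 7 and 4, with limits of 40 and 40 they were 42 and 31, and where every probe of a gene had to meet the rule they were 13 and 5. The mean over probes gave 16 and 8, with ADGRF1 lost and 1 other gene gained among the 8. Leaving out 1 time point gave 28 to 53 genes off and 18 to 21 on, and all 20 and 8 were kept each time, as fewer arrays can only add genes. Without 0 h there were 53 off, and 27 of the 33 genes added had read under 60 in TE13 at 0 h; without 8 h there were 28 and without 24 h 32. The count on was 21, 18 and 18. No neighbouring pair appeared with at most 1, 10 or 20 genes between. Past 2-fold up or down, at 8 or 24 h against 0 h, were 21 symbols, 18 in TE13 and 3 in TE13R. They became 20 with 16 added to the intensities and 15 with 64 added. The share over all genes at either time was not counted. At 8 h alone, 28.9% of all genes read in TE13 were at least 2-fold higher and 27.8% lower, and 22.4% and 24.3% in TE13R. Nothing is read from the 21. The 14 genes with a CpG-rich promoter became 11 at the stricter limits (0.75 and 55%), 8 of 13 off and 3 of 5 on. At these limits the share was 54.2% of all array genes. It was 73.6% of the genes read at 60 or more in TE13 and 73.3% of those in TE13R. The lines were compared at matched times throughout, and no test was made, with or without a block for time.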

Other observations

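Some genes missed the limits by little. On the side of TE13R, SPRR2A read 58.3, 275 and 182 in TE13R and at most 14.4 in TE13, SPRR3 read 55.3, 48.7 and 53.9 against at most 19.6, KLK12 read 104, 70.5 and 248 against at most 25.9, and the adhesion molecule CEACAM6 read 124, 193 and 126 against at most 31.1. On the side of TE13, LHX2 read 1034, 1094 and 812 in TE13 and at most 32.5 in TE13R, and PRRX2 read 45.2, 157 and 782 in TE13 and -3.1, -4.1 and -4.8 in TE13R. BEX5, an X-linked gene of a neural family, read 873, 1838 and 1455 in TE13 against -0.6, 7.0 and 29.7 in TE13R. Near misses of other kinds, HSPB3, HOXB8, NRCAM and KCNE5 among them, lay as close to the limits. These genes were chosen after their values were seen, and no test was made.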
